A study of Homo sapiens with 8 samples.

Results

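Keratins are the intermediate filament proteins of epithelial cells, and keratin-associated proteins form the matrix around keratin filaments in the hair shaft. The genes described here are 10 of these in LM2, a subline of the human triple-negative breast cancer line MDA-MB-231 selected for metastasis to the lung. They are the keratin-associated genes KRTAP2-3, KRTAP2-4 and KRTAP1-5, the type I keratins KRT18 and KRT19, and the type II keratins KRT7, KRT8, KRT80, KRT81 and KRT86. The set was a list of symbols, all 10 of which matched a gene among the 58688 of the count files. KRTAP2-3 and KRTAP2-4 were chosen by their far lower counts with Ponatinib, and the other 8 were added to the list with results of these data known. The Ponatinib values of the 10 genes are therefore given as a description without p-values.

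RNA-seq was deposited for 8 samples of LM2 cells. DMSO-treated cells and cells given 1 µmol/L Ponatinib, an inhibitor of ABL and other tyrosine kinases, for 6 h had 2 samples each. Cells carrying lentiviral scrambled shRNA (shCtrl), ABL1 shRNA, ABL2 shRNA or both hairpins (ABL1/ABL2 shRNA) had 1 sample each, so no knockdown has a replicate check. The shRNA cells were incubated with virus for 48 h, and the paper's methods state that they were then selected with puromycin. All 8 samples are a single cell line, the hairpins were stably introduced, and the labels do not say whether the repeats were separate cultures, so the spread between them may be technical.

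A keratin filament is built from pairs of 1 type I and 1 type II chain. KRT8 with KRT18 is the pair of simple epithelia, KRT7 and KRT19 mark simple and ductal epithelia including breast, and KRT80 is found in several epithelia. KRT81 and KRT86 are hair keratins that are also found in breast cancer cells. KRTAP2 and KRTAP1 genes are small single-exon genes that normally follow the hair keratins in the growing hair shaft.

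The sequences bear on what the counts can separate. The coding sequences of KRTAP2-3 and KRTAP2-4, 387 bases each with the stop codon, differed at 1 base, T333C, counted from the A of the start codon with the KRTAP2-3 base first. The 60 coding bases around that difference are shown from GRCh38, minus strand, with the differing base in capitals. The first lies at chr17:41059689-41059748 and the second at chr17:41065484-41065543.
KRTAP2-3: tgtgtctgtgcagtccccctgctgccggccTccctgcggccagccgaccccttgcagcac
KRTAP2-4: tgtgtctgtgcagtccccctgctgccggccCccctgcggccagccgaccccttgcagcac
Of the 50-base windows along the annotated transcript, 39.5% of those of KRTAP2-3 (length 875 bases) also occur in KRTAP2-4, and 45.6% of those of KRTAP2-4 (764 bases) occur in KRTAP2-3. A read from the coding part cannot tell them apart in most places, and the counts of the pair are best read together. The coding sequence of KRTAP2-1, which is not on the list, differed from that of KRTAP2-3 at 2 bases.

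The upstream sequences of the keratin-associated genes are shown because the genes lie near each other on chromosome 17. RefSeq windows were at hand for 4 of the 10 genes, and the 150 bases before each start are given for the 3 keratin-associated genes (GRCh38.p14, minus strand) with TATAAA, the core of a TATA box, in capitals. They lie at chr17:41060115-41060264, chr17:41065880-41066029 and chr17:41027209-41027358.
KRTAP2-3: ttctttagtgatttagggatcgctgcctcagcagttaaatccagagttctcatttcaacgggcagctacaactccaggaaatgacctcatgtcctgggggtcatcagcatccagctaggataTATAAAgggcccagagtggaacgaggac
KRTAP2-4: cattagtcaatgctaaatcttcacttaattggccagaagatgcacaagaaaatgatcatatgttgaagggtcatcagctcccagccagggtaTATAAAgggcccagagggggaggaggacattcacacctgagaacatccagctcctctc
KRTAP1-5: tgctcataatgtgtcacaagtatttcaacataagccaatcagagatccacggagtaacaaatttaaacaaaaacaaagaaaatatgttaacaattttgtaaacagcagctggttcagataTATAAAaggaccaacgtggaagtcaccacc
Each of the 3 holds TATAAA, whose letters on the printed strand occur in 7.33% of all 35116 RefSeq windows of 300 bases. The TATAAA begins 28 bases before the RefSeq start in KRTAP2-3, 58 before in KRTAP2-4 and 30 before in KRTAP1-5. The full windows of KRTAP2-3 and KRTAP2-4 align with 87.3% identity over 126 columns that include this stretch. These columns run from base -75 to base 49 around the KRTAP2-3 start and from -104 to 19 around the KRTAP2-4 start. Part of the alignment thus lies in the transcripts, past the printed bases. On either strand, none of the 3 full windows holds the AP-1 letters TGACTCA or TGAGTCA (4.95% of all windows), the CRE letters TGACGTCA (1.85%), the ETS letters CCGGAAG or CTTCCGG (10.3%), the TEAD letters GGAATG or CATTCC (14.0%) or a CArG box (1.29%). The remaining window, that of KRT8, held 1 match to the ETS letters and 1 to the TEAD letters. Sites outside the 300 bases, or with other letters, were not looked for. With shares this low, a lack of matches in 3 windows says little.

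Counts on genes ranged from 7568934 to 13010896 per sample, and 3 counts, taken as the floor, correspond to 0.231 to 0.396 CPM, the count scaled to a fixed library total. ABL1 was at 0.384 of shCtrl with ABL1 shRNA and 0.576 with both hairpins, and ABL2 was at 0.396 with ABL2 shRNA and 0.625 with both, which goes with the labels. The column titles of 2 files, those for shCtrl and for ABL1 shRNA, carry the condition of the other, and the labels were used. Among markers of the line's state, VIM was at 1877 to 3076 normalized CPM over the group means and CDH1 at 1.77 or less. ESR1 was at 0.848 or less and PGR at 0. Mesenchymal CDH2 was at 1.05 or less, FN1 at 404.6 to 4215 and ZEB1 at 89.3 to 173.7. Epithelial EPCAM was at 5.015 to 11.3 and ESRP1 at 0.615 to 3.41. The receptor gene ERBB2 was at 55.5 to 65.6, so the markers were mixed. Of the leukocyte, endothelial and fibroblast markers given here, PTPRC, CD3E, CDH5, DCN, LUM and PDGFRA stayed at or under 0.615 in every group mean, while PECAM1 ran from 3.16 to 3.34 with DMSO or Ponatinib and from 20.5 to 39.7 in the shRNA samples. CD14, CSF1R, VWF and COL1A2 were at 0.183 to 7.15. Pseudogenes of KRT8 and KRT18 took very different shares of counts in the DMSO and Ponatinib samples and in the shRNA samples, as described at the end. For this reason samples were compared within a set and not across sets.

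With Ponatinib, the KRTAP2 genes were nearly without counts. KRTAP2-3 (ENSG00000212724.3, chr17:41059240-41060114, GRCh38, minus strand, 1 exon) had 85 and 65 counts with DMSO and 4 and 1 with Ponatinib. In CPM normalized by the TMM method, this was 7.50 and 6.57 against 0.379 and 0.130, or 7.04 ± 0.663 against 0.255 ± 0.176 (SD, n = 2 each). The samples of the 2 groups did not overlap, and over the group the DMSO level was 25.8-fold above that with Ponatinib (95% interval 10.8 to 80.6, which covers counting error only). In a bulk sample, fewer cells with the transcript and less of it per cell cannot be told apart.

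KRTAP2-4 (ENSG00000213417.3, chr17:41065116-41065879, minus strand, 1 exon) had 17 and 11 counts with DMSO and none in either Ponatinib sample. Against a floor of 3 counts over the group, its level was at least 8.02-fold lower with Ponatinib. The nearly identical genes that are not on the list went the same way in counts, KRTAP2-2 from 12 and 9 to 0 and 0, at least 6.02-fold lower, and KRTAP2-1 from 8 and 5 to 1 and 0. All 4 KRTAP2 genes summed had 122 and 90 counts with DMSO and 5 and 1 with Ponatinib, a 30.4-fold difference (95% counting interval 13.7 to 83.7). If each read was counted only 1 time, the sum does not depend on how reads were split between the genes. The counting settings are not given, so reads shared by the 4 genes could have been dropped or counted on several of them. KRTAP1-5 (ENSG00000221852.4, chr17:41026026-41027208, minus strand) had 1 count in DMSO replicate 2 and 0 in the other 7 samples, under the floor throughout, so no difference was detectable.

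**Figure D1:**
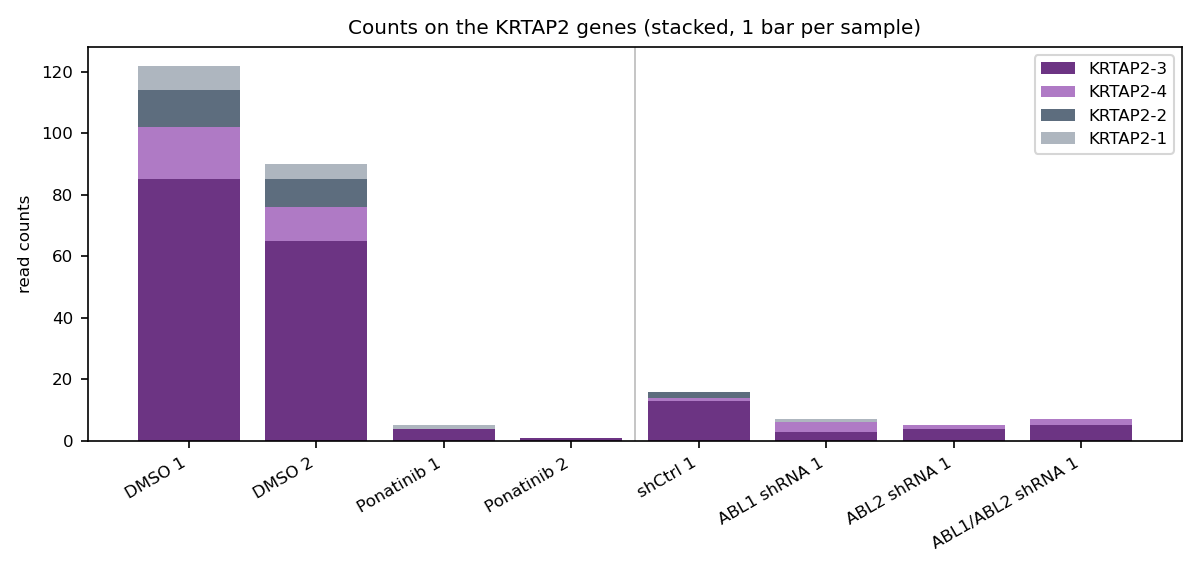
Read counts on the 4 KRTAP2 genes in each of the 8 samples (1 stacked bar per sample, not scaled for depth). The DMSO bars reach 122 and 90, the Ponatinib bars 5 and 1, and the shRNA bars 5 to 16.

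Few genes of the keratin-associated family had counts. The files list 94 protein-coding keratin-associated genes on chromosomes 11, 17 and 21, of which 75 had 0 counts in all 8 samples and 89 had fewer than 10 counts over the 8 samples. Only 5 reached 10 counts over the 8 samples, the 4 KRTAP2 genes and KRTAP4-1, named after its counts were seen. In the shRNA samples the KRTAP2 sum was 16 counts in shCtrl and 7 (ABL1 shRNA), 5 (ABL2 shRNA) and 7 (double knockdown), ratios of 0.384 (95% counting interval 0.134 to 0.986), 0.283 (0.081 to 0.807) and 0.409 (0.142 to 1.05). KRTAP2-3 alone had 13, 3, 4 and 5 counts in the same order. With so few counts in single samples, a difference of the double knockdown from shCtrl was not detectable, and the intervals of the single knockdowns ended below 1.

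Of the 10 genes, 9 had enough counts to be tested in the fit across all genes, and 6 of the 9 passed its adjusted p threshold, 3 higher and 3 lower with Ponatinib. Across all genes 30.7% passed, 15.0% higher and 15.7% lower, and since this contrast was used to draw up the list, nothing is read from the count. By the study's own thresholds, a fold change over 2 with an unadjusted P under 0.05, 2 of the 9 were called, KRTAP2-3 and KRTAP2-4, against 5.48% of all genes (3.19% higher and 2.29% lower). Samples of the 2 groups did not overlap for 7 of the 9, against 64.9% of all genes (32.1% higher and 32.8% lower). The median log2 fold change was 0.098 over the 9 and -0.0047 over all 16031 genes tested. The keratins differed far less than the KRTAP2 genes, and in both directions.

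KRT18 (ENSG00000111057.7, chr12:52948871-52952906, plus strand), the type I partner of KRT8, differed most of the 7 listed keratins with all samples in the fit. It was at 219.5 and 221 normalized CPM with DMSO and at 155 and 145 with Ponatinib, a log2 fold change of -0.55 (standard error 0.06) or a level lower by 31.7%. The samples of the groups did not overlap, and the log2 fold change stayed between -0.59 and -0.51 whichever sample was left out, while KRT86 reached 0.64 without DMSO replicate 2. KRT19 (ENSG00000171345.10, chr17:41523617-41528308, minus strand), the other type I gene and the smallest keratin, had overlapping samples, at 35.8 and 40.3 with DMSO and 41.3 and 39.9 with Ponatinib (log2 fold change 0.10, standard error 0.09).

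Among the type II keratins, KRT8 (ENSG00000170421.8, chr12:52897187-52949954, minus strand) did not go with its partner. Its samples overlapped, at 243 and 256 normalized CPM with DMSO and 258 and 249.2 with Ponatinib, a log2 fold change of 0.025 (standard error 0.06). KRT7 (ENSG00000135480.11, chr12:52232520-52252186, plus strand) was higher in both Ponatinib samples, at 231 and 227 against 189 and 198.5, a log2 fold change of 0.24 (standard error 0.06). KRT80 (ENSG00000167767.10, chr12:52168996-52192014, minus strand) was higher to a like degree, at 151 and 156 against 127 and 134 (0.24, standard error 0.06). KRT7 and KRT80 no longer passed the threshold without DMSO replicate 1 (log2 fold changes 0.21 and 0.20) or without DMSO replicate 2 (0.28 and 0.28).

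The hair keratins KRT81 (ENSG00000205426.7, chr12:52285913-52291534, minus strand) and KRT86 (ENSG00000170442.8, chr12:52249300-52309163, plus strand) differed in size of change. KRT86 was at 15.6 and 19.1 normalized CPM with DMSO and 23.9 and 24.8 with Ponatinib, a log2 fold change of 0.49 (standard error 0.12), and it did not pass without DMSO replicate 1 (0.35) or with DESeq2's Wald test (0.49). KRT81 was at 156 and 162.4 with DMSO against 180 and 162.7 with Ponatinib (0.11, standard error 0.07), so close that a single pair kept the groups from overlapping, and it passed only without Ponatinib replicate 2 (0.18). Their transcripts align with 94.6% identity over 1404 columns, and 38.4% of the 50-base windows of KRT81 also occur in KRT86, so the counting could split reads between them. The ratio of KRT86 to KRT81 counts was 0.100 and 0.118 with DMSO, 0.133 and 0.152 with Ponatinib, and 0.088 to 0.107 in the shRNA samples.

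**Figure D2:**
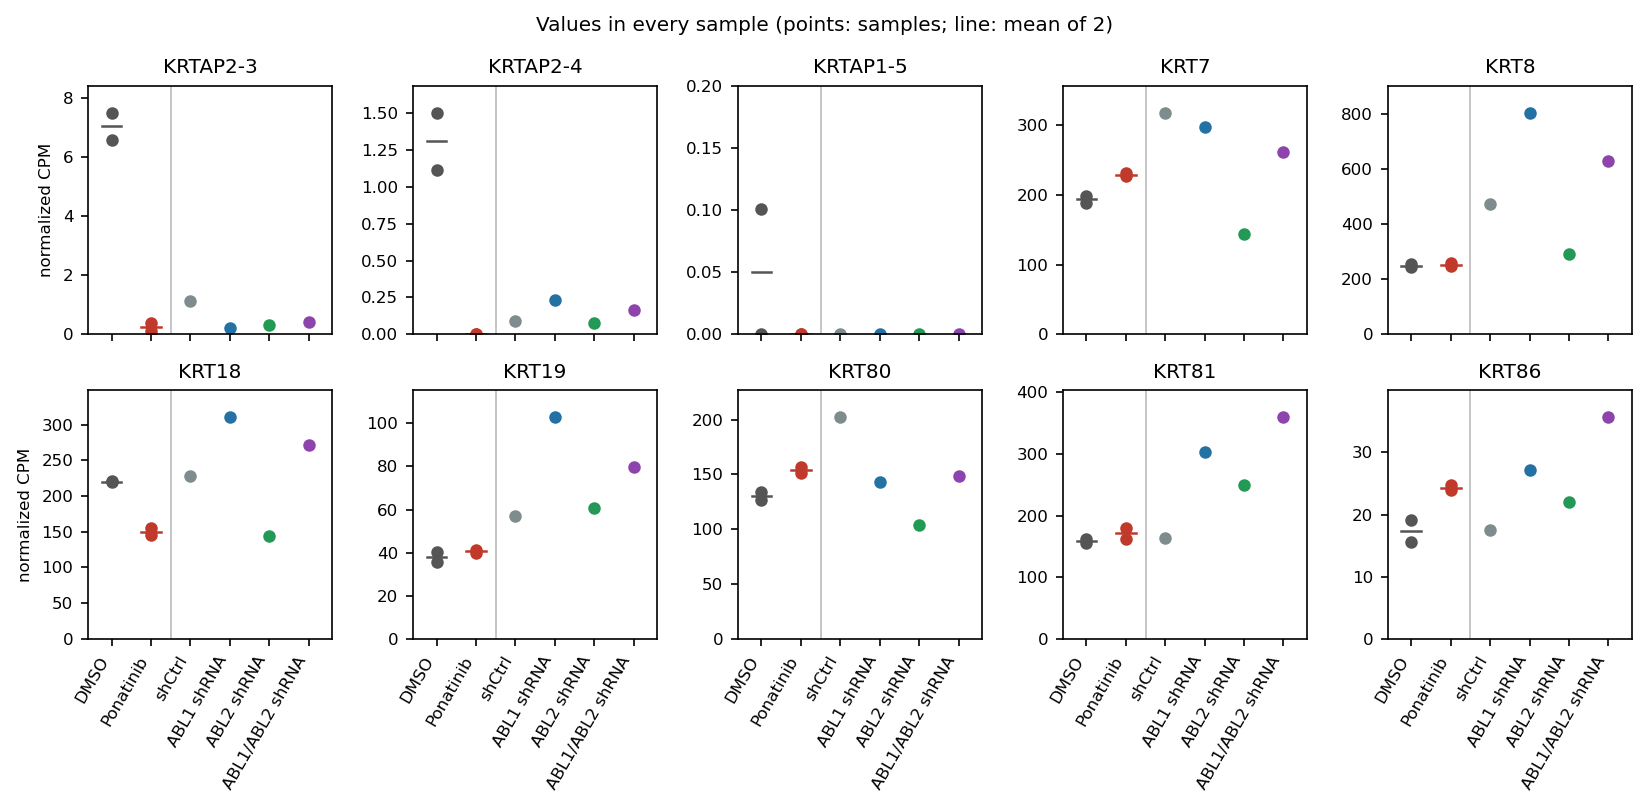
Normalized CPM of the 10 genes in every sample, 1 panel per gene with its own axis from 0, where points are samples, horizontal lines are means of 2, and the grey line separates the 2 sets of samples. KRT18 sits at 219.5 and 221 with DMSO and 155 and 145 with Ponatinib, while KRT8 overlaps between these groups and runs from 294 to 806 across the shRNA samples.

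Divided by the length of the annotated transcript, the DMSO levels ran in the order KRT18 (155 and 156 normalized CPM per kb), KRT8 (136 and 143), KRT7 (116 and 122), KRT81 (80.9 and 84.2), KRT80 (32.7 and 34.6) and KRT19 (25.8 and 29.0). KRTAP2-3 (8.58 and 7.50) and KRT86 (6.95 and 8.50) followed with overlapping samples, then KRTAP2-4 (1.96 and 1.45). No other neighbours in this order overlapped. With Ponatinib, KRT8 (145 and 140) and KRT7 (142 and 140) came first and overlapped, and KRT18 (110 and 103) came after them. These orders leave out the pseudogenes of KRT8 and KRT18. Pseudogenes held 24.4% to 28.9% of the counts on parent and pseudogenes in the DMSO and Ponatinib samples. With those counts added, the places of KRT8 and KRT18 relative to KRT7 could differ. The 7 listed keratins made up 94.0% to 97.4% of all keratin per length in each sample.

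Summed per length, type I keratins were 0.540 and 0.522 of type II with DMSO and 0.374 and 0.354 with Ponatinib. On the log2 scale the balance was lower by 0.547 with Ponatinib, against a pooled SD between replicates of 0.046, and the groups did not overlap. KRT18 made up 75.3% and 74.6% of type I keratin with DMSO and 66.6% and 68.1% with Ponatinib. The ratio of KRT18 to KRT8 per length was 1.14 and 1.09 with DMSO and 0.759 and 0.736 with Ponatinib. In the shRNA samples the balance of type I over type II was 0.376 for shCtrl, and it was 0.380 for ABL1 shRNA, 0.397 for ABL2 shRNA and 0.364 for the double knockdown. These differences from shCtrl, -0.045 to 0.078 on the log2 scale, stayed small while the summed levels themselves ran from 168 to 321 for type I and from 424 to 844 for type II. The ratio of KRT18 to KRT8 per length differed more, at 0.607 in shCtrl and 0.486 with ABL1 shRNA. It was 0.619 with ABL2 shRNA and 0.544 with both hairpins.

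**Figure D3:**
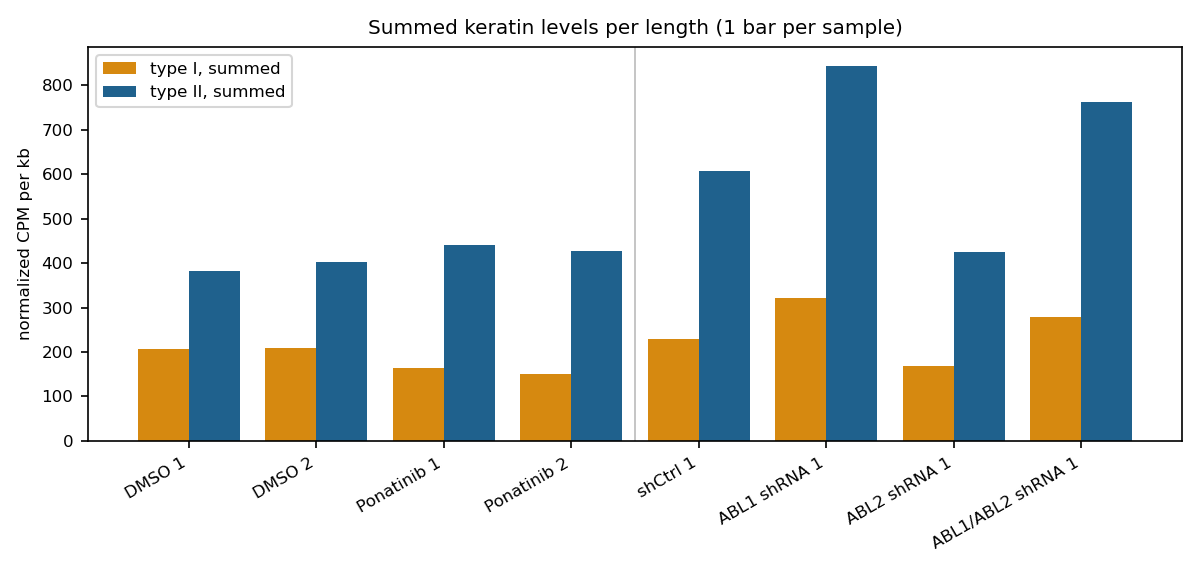
Summed normalized CPM per kb of the type I (orange) and type II (blue) keratin genes, 1 pair of bars per sample. Type I bars are at 206 and 210 with DMSO and 165 and 151 with Ponatinib, and both bars differ across the shRNA samples, with 229 and 608.5 in shCtrl against 320.5 and 844 with ABL1 shRNA.

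Keratins lay on both sides of shCtrl in each knockdown sample. With ABL1 shRNA, 5 of the 7 keratins were above shCtrl beyond counting error and 2 below. With both hairpins the split was again 5 above and 2 below, and with ABL2 shRNA it was 2 above, 4 below and 1 not separable. Among the 8571 genes with at least as many shCtrl counts as KRT86, the least counted of the 7, 29.0% were above and 35.1% below with ABL1 shRNA, 23.3% and 34.0% with ABL2 shRNA, and 26.0% and 34.4% with both. A counting interval says nothing of the spread between cultures, and the 3 knockdowns share a single control sample.

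KRT8 differed most between the hairpins. It was at 475 normalized CPM in shCtrl against 806 (ABL1 shRNA), 294 (ABL2 shRNA) and 630.5 (double knockdown), ratios to shCtrl of 1.70 (95% counting interval 1.64 to 1.75), 0.619 (0.593 to 0.645) and 1.33 (1.28 to 1.37). The level with both hairpins lay between those of the single knockdowns. KRT18, at 229, 311, 144 and 272 in the same order, went with it (ratios 1.36, 0.630 and 1.19). For this pair the direction with ABL1 shRNA was the opposite of that with ABL2 shRNA.

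KRT19 was at 56.9 in shCtrl against 103 (ABL1 shRNA), 60.9 (ABL2 shRNA) and 79.7 (double knockdown). The ABL2 value was not separable from shCtrl by counting (ratio 1.07, 95% interval 0.963 to 1.19). KRT7 was at 318, 297.5, 143.5 and 261, and with ABL2 shRNA its ratio of 0.451 (0.426 to 0.477) was past 2-fold. It was the only 1 of the 7 keratins past 2-fold in that sample, against 4.24% of 14231 genes, 2.64% higher and 1.60% lower. KRT80, at 202, 143, 104 and 149, was below shCtrl in all 3 knockdowns, with ratios of 0.706, 0.515 and 0.735.

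KRT81 and KRT86 were above shCtrl in all 3 knockdowns. KRT81 was at 163 in shCtrl against 303 (ABL1 shRNA), 250 (ABL2 shRNA) and 360 (double knockdown). KRT86 was at 17.5, 27.2, 22.01 and 35.7 in the same order. With both hairpins the ratios were 2.21 (2.09 to 2.33) for KRT81 and 2.04 (1.72 to 2.43) for KRT86, the 2 of the 7 keratins past 2-fold there, against 4.03% of all genes, 2.27% higher and 1.76% lower. With ABL1 shRNA none of the 7 was past 2-fold, against 5.02% of all genes, 2.49% higher and 2.52% lower. A lower value of the shCtrl sample itself and a higher value of the 3 knockdowns cannot be told apart for genes that lie on the same side in all 3.

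ABL1 shRNA was also set directly against ABL2 shRNA, with 1 sample on each side. All 7 keratins were higher with ABL1 shRNA. The share of all genes that were higher was not counted, so nothing is read from that count. KRT8 was 2.74-fold higher (95% counting interval 2.64 to 2.85), KRT18 2.16-fold (2.04 to 2.28) and KRT7 2.07-fold (1.96 to 2.19), past 2-fold, against 1.69% of all genes higher and 2.30% lower. KRT19 was 1.69-fold higher (1.54 to 1.85), KRT80 1.37-fold (1.28 to 1.47), KRT86 1.24-fold (1.05 to 1.45) and KRT81 1.21-fold (1.16 to 1.27). The simple epithelial keratins thus stood further apart between these samples than the hair keratins. Between replicates of DMSO or of Ponatinib, the same gene differed by at most 0.289 on the log2 scale among the 7 keratins, the largest being KRT86. Those pairs carried no hairpin and may be technical, so they do not measure the spread between shRNA cultures, which is not known here.

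**Figure D4:**
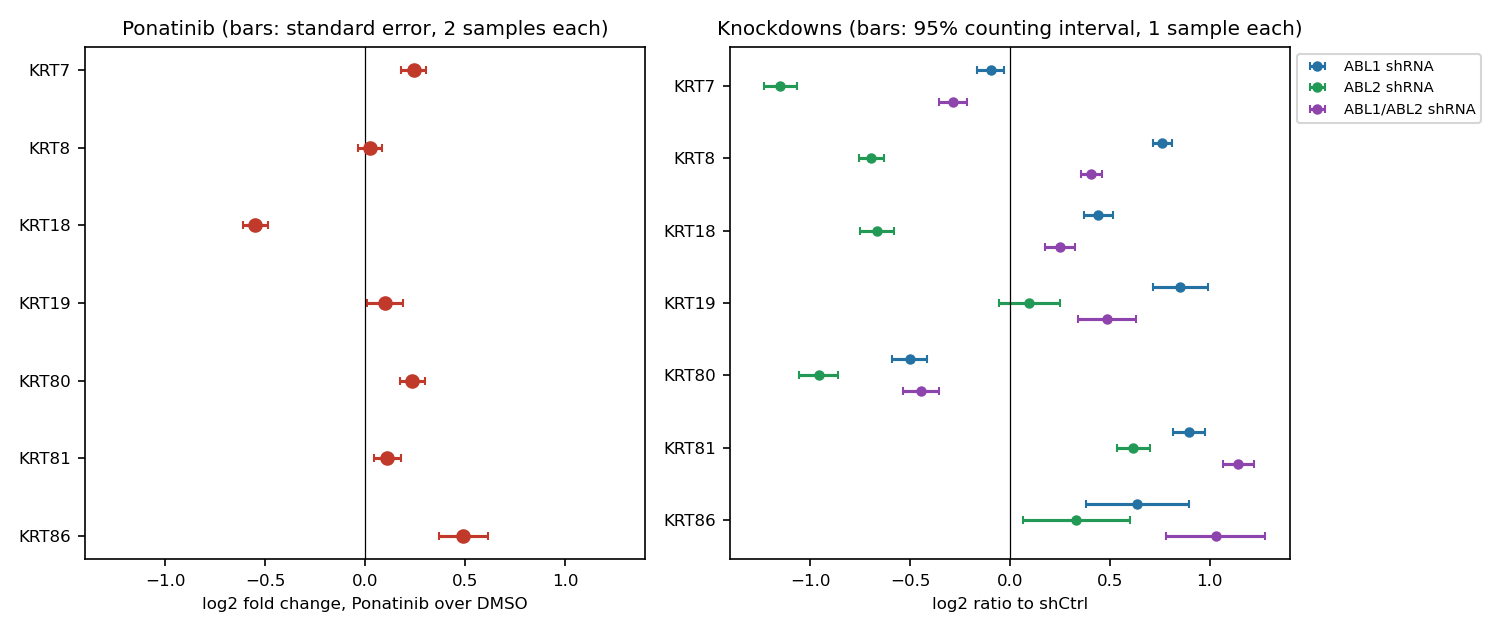
Log2 fold change of the 7 keratins with Ponatinib (left, points with standard errors, 2 samples each) and log2 ratio of each knockdown to shCtrl (right, points with 95% counting intervals, 1 sample each), both axes from -1.4 to 1.4. Ponatinib values lie between -0.55 and 0.49, and knockdown values between -1.15 and 1.14.

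Across the 8 samples, with log2 levels centred within each set, KRT8 and KRT18 correlated at r = 0.81, KRT8 and KRT19 at 0.82, KRT7 and KRT80 at 0.89, and KRT81 and KRT86 at 0.85. KRT81 and KRT7 correlated at -0.09. These values describe 8 samples that share 2 control groups and, for KRT81 and KRT86, sequence. Of 10964 genes with a mean of at least 5 CPM in each set, those most like KRTAP2-3 were GRPEL1 (r = 0.997), PDSS1 (0.993), HSPA8 (0.990), UNG (0.990) and PES1 (0.989), over the same 8 samples. Their range was much narrower than that of KRTAP2-3, since GRPEL1 was at 93.2 and 87.1 normalized CPM with DMSO and 54.2 and 47.1 with Ponatinib. KRTAP2-3 itself lay under the minimum of 5 CPM, with 4 and 1 counts with Ponatinib and 3 to 13 in the shRNA samples. The lower counts with Ponatinib by which KRTAP2-3 was chosen enter each r. The likeness is therefore a description that rests on values near the floor.

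Other members of the family were few. Of the 139 further protein-coding keratin and keratin-associated genes, 5 had enough counts to be tested with Ponatinib, and the hair keratin KRT83 rose (log2 fold change 0.56, standard error 0.14, edgeR adjusted p = 0.00867), a call that ended without DMSO replicate 1 and with DESeq2's Wald test. KRT10, KRT15, KRT34 and KRT85 did not pass, with log2 fold changes of -0.12, -0.17, -0.47 and 0.04. KRT83 is a close relative of KRT81 (94.0% identity over 1425 columns) and shares 50-base windows with it. In counts it went from 103 and 98 with DMSO to 145 and 109 with Ponatinib, and it had 19 in shCtrl, 39 and 39 in the single knockdowns and 131 with both hairpins, the same order of high and low samples as KRT81 in that the double knockdown was highest and shCtrl lowest. KRT34 had 27 counts in shCtrl and 3, 12 and 13 in the knockdowns. KRT15 had 52 in shCtrl against 131 (ABL1 shRNA), 59 (ABL2 shRNA) and 96 (double knockdown), and KRT79 had 17, 40, 68 and 61. Of the basal keratins, KRT14 had 12 counts in shCtrl and 18, 14 and 28 in the knockdowns, and KRT17 had 81 in shCtrl and 43, 52 and 64. Both had at most 3 counts in any DMSO or Ponatinib sample, too few for a comparison there. KRT16 had at most 15 counts in any sample.

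Genes that anchor or modify keratin filaments were tested from lists that do not hold the 10 genes. These lists and those that follow were drawn up with earlier results of these data known. Their adjusted p-values come from the fit across all genes and are not an independent test of the lists. Of 17 desmosome, plakin and hemidesmosome genes tested, 4 rose and 8 fell with Ponatinib (adjusted p under 0.05), against 15.0% of all genes higher and 15.7% lower, and the median log2 fold change was -0.18. Of these calls, 3 rises and 4 falls were left without DMSO replicate 1, 4 and 5 without DMSO replicate 2, and 3 and 5 by DESeq2's Wald test. JUP, the desmosomal plakoglobin, rose by 1.01 on the log2 scale from 25.3 ± 2.00 to 50.7 ± 2.26 normalized CPM (SD, n = 2 each, edgeR adjusted p = 1.17e-06). The periplakin gene PPL, PKP3 and DSC2 rose too (0.82, 0.57 and 0.69), and the DSC2 call ended without DMSO replicate 1 or Ponatinib replicate 2 and with DESeq2's Wald test. Among the genes that fell were COL17A1 of hemidesmosomes (-0.77), PKP2 (-0.52), EPPK1 (-0.44) and the keratin linker PLEC (-0.43), and EPPK1 no longer passed without DMSO replicate 2 or with DESeq2's Wald test. DSP, the desmoplakin that ties keratin to desmosomes, did not pass (0.15, edgeR adjusted p = 0.111).

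Of 16 keratin partners and modifiers tested, 1 rose and 5 fell, against 15.0% of all genes higher and 15.7% lower, with a median log2 fold change of -0.02. KLHL24, a ubiquitin ligase adaptor known to act on keratin 14, rose by 1.52 on the log2 scale, from 31.0 to 88.8 normalized CPM (standard error 0.09, edgeR adjusted p = 4.99e-09). The chaperone genes HSPA8 (-0.69), DNAJB6 (-0.53) and HSPA1A (-0.24), the 14-3-3 sigma gene SFN (-0.62) and PNN (-0.37) fell, and the HSPA1A call ended without DMSO replicate 1 or 2 and with DESeq2's Wald test. Of 8 other intermediate filament genes tested, SYNM rose (0.45) and NES (-0.43) and LMNB2 (-0.27) fell, while VIM, the main filament gene of these cells, did not pass (0.06, edgeR adjusted p = 0.415). The SYNM and LMNB2 calls ended without DMSO replicate 1 and that of NES without DMSO replicate 2.

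Of 11 epithelial and squamous regulators tested, 4 rose and 3 fell, with a median log2 fold change of 0.22. The same shares of all genes, 15.0% higher and 15.7% lower, stand beside this count and those of the lists that follow. ELF3, an epithelial ETS factor, rose from 1.10 to 8.88 normalized CPM (log2 fold change 3.03, edgeR adjusted p = 6.36e-07), and ESRP1, an epithelial splicing factor, from 0.789 to 3.41 (2.09, edgeR adjusted p = 0.000327). KLF4 (0.52) and TFAP2A (0.44) rose as well, and TFAP2C (-0.65), ESRP2 (-1.50) and SOX15 (-0.97) fell. The calls of TFAP2A, ESRP2 and SOX15 each ended without DMSO replicate 1 and with DESeq2's Wald test. That of TFAP2A also ended without DMSO replicate 2, that of ESRP2 without Ponatinib replicate 2 and that of SOX15 without Ponatinib replicate 1 and without Ponatinib replicate 2. With 10 counts required in every sample, ESRP1 and ESRP2 were not tested. Of 6 line state markers tested, which repeat VIM and ESRP1, FN1 (0.24), ERBB2 (0.22) and ESRP1 rose and ZEB1, a repressor of epithelial genes, fell (-0.57, edgeR adjusted p = 1.94e-05), and the calls of FN1 and ERBB2 ended without DMSO replicate 1 and without DMSO replicate 2. That of ERBB2 also ended without Ponatinib replicate 2, with DESeq2's Wald test and with no filter on low counts. Of 6 cornified envelope genes tested 1 fell, SERPINB2 (-1.48), a call lost without DMSO replicate 2 or Ponatinib replicate 1 and with DESeq2's Wald test, and the gene was not tested with 10 counts required in every sample. Of 9 hair follicle regulators tested 1 fell, SOX9 (-0.78, edgeR adjusted p = 1.83e-06). HOXC13 and FOXN1, which regulate hair keratin genes, had too few counts to be tested. None of the 3 tested leukocyte, endothelial and fibroblast markers passed, with log2 fold changes of -0.02 to 0.15 (0 had an unadjusted p under 0.05). Over all lists together 34 genes passed. Of these 34, 20 still passed without DMSO replicate 1, where 22 list genes passed in all, and 23 by DESeq2's Wald test.

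KRT8 and KRT18 have many processed pseudogenes, and the counts on them differed between the 2 sets of samples. The part of mapping or counting in this was not tested. Of the counts on KRT18 and its 66 pseudogenes outside chromosome Y, the pseudogenes held 26.9% to 28.9% in the DMSO and Ponatinib samples and 0.395% to 1.31% in the shRNA samples. For KRT8 and its 51 pseudogenes, the shares were 24.4% to 27.9% and 3.38% to 4.57%. In all, 68 genes reached 100 counts in each of the DMSO and Ponatinib samples while all shRNA samples had 0, 62 of them annotated pseudogenes, and no gene showed the reverse. By sequence, 39.2% of the 50-base windows of KRT8 and 35.3% of those of KRT18 also occur in transcripts of other genes, most often of KRT8P3 and of KRT18P11. Levels of KRT8 and KRT18 therefore cannot be compared between the sets.

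Within each set, counts of parent and pseudogenes were added up as well. With the pseudogene counts added to each parent, an alternative chosen after seeing the data, the Ponatinib log2 fold change was -0.52 for KRT18 and -0.003 for KRT8. The KRT18 pseudogenes alone differed by -0.44 with Ponatinib and those of KRT8 by -0.08. In the knockdowns the summed ratios were 1.69, 0.623 and 1.33 for KRT8 and 1.36, 0.635 and 1.19 for KRT18, in the same order of knockdowns. Annotated exons overlap as well in GENCODE release 44, with 26.5% of the KRT18 transcript in exons of KRT8. For KRT86, 20.2% of the transcript lies in exons of other genes. For KRT7, 13.6% lies in exons of the antisense gene KRT7-AS. The counter's strand setting is not given in the sources used here, and the shRNA files leave 6.12% to 6.32% of reads uncounted as ambiguous.

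**Figure D5:**
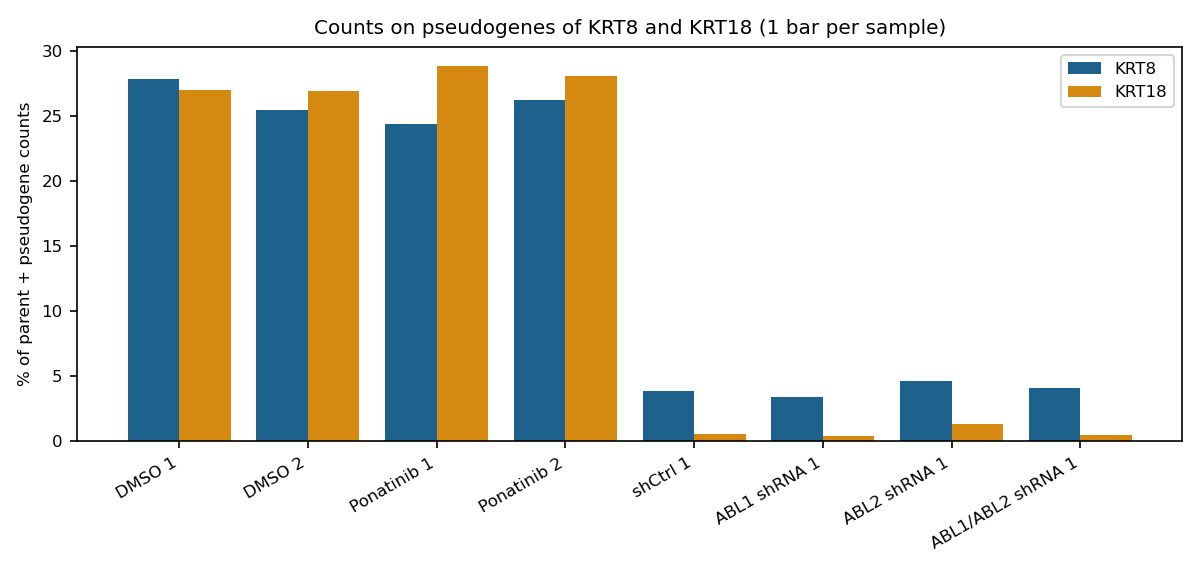
Share of the counts on each parent gene and its pseudogenes that fell on the pseudogenes, for KRT8 (blue) and KRT18 (orange), 1 bar per gene and sample. The bars are at 24.4% to 28.9% in the DMSO and Ponatinib samples and at 4.57% or less in the shRNA samples.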

How the data were processed

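Total RNA of LM2 cells was sequenced by the authors on an Illumina instrument, mapped to hg38 with Bowtie and TopHat, and counted per gene, with HTSeq 0.6.0 named in the submitters' processing notes. The deposited values are raw read counts per gene, without normalization, 1 file per sample. Mapping and counting settings and the annotation release are not given in the sources used here. Summary rows in the shRNA files (9.48% to 9.90% of reads on no feature) were left out. The 10 genes and the gene lists were chosen with earlier results of these data known.

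Gene IDs were matched to symbols without version, for 54836 of 58688 rows. Ponatinib was compared with DMSO with the quasi-likelihood test of edgeR 4.0.16 (R 4.3.3, TMM factors, filterByExpr, prior count 0.125) over 16031 genes, and a call is a Benjamini-Hochberg adjusted p under 0.05. The standard error is the log2 fold change divided by the square root of the F statistic. The scripts were tested on simulated data. Knockdowns, with 1 sample each, were not tested, and ratios of normalized CPM carry 95% exact binomial intervals for counting error only, with past 2-fold counted over 14231 genes. Gene coordinates and lengths (canonical transcript) are those of GENCODE release 44 (GRCh38, the build of the files). The DMSO pair correlated at 0.996 and the Ponatinib pair at 0.993 (log2 CPM across 10964 genes). Chi-square per degree of freedom was 1.44 and 3.13, so neither pair was the same counts deposited again. Whether a pair came from the same RNA or library cannot be told from these values. Named genes were the 10, ABL1, ABL2, other family genes with a group mean of at least 1 CPM, up to 8 called genes per list by size of change, and the 5 genes most like KRTAP2-3. KRTAP2-1, KRTAP2-2, the pseudogenes, the cell markers and those list genes given as not passing were named after their values were seen. Alternatives were DESeq2 1.42.0 size factors and Wald test, upper-quartile factors, other count filters, the study's thresholds, a replicate block, leaving out each sample, summing the KRTAP2 pair, and other scalings for the knockdowns. 1 cell marker is not reported here.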

Additional observations from a re-analysis of the deposited data

How the results depend on the processing

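Alternatives set at the start gave 4916 to 5073 calls with Ponatinib under other scalings, no filter or the replicate block, against 4917, and 2820 with DESeq2's Wald test. The study's thresholds gave 878 calls in all, 2 among the 10 genes and 6 among the list genes, since a fold over 2 is required. Leaving out 1 sample gave 2800 to 5744 calls in all, 2 to 7 among the 10 genes (against 6) and 22 to 42 among the list genes (against 34). The lowest came without DMSO replicate 1, where 0 of the 10 genes were called higher and KRTAP2-4 was not tested, and the total without DMSO replicate 2 was 3242. Samples with the same repeat number did not deviate together (r = -0.0027 across 10964 genes), and a replicate block on that number gave 4984 calls, with the same 6 of the 10 genes among them. DESeq2's Wald test called 4 of the 10, losing KRTAP2-4 and KRT86. Requiring 10 counts in every sample removed KRTAP2-3 and KRTAP2-4 from the test. KRTAP2-3 moved most with a sample left out, to -5.62 without Ponatinib replicate 1, which leaves a single count in the Ponatinib group, and its fold is bounded by depth. No direction reversed among the calls of the 10 genes. The knockdown counts past 2-fold and the keratin balance stayed within 1.5 times, or within 1 SD, of their values under all alternatives run.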
